A study of Mus musculus with 8 samples.

Results

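Egr1, Egr2, Egr3, Egr4, Nr4a1, Nr4a2, Nr4a3, Arc, Npas4 and Ier5 are genes that neurons and other cells switch on quickly after stimulation, and they were taken by gene name from the gene tables of a mouse brain RNA-seq study. The 10 genes were found among 54532 table entries, and all 10 passed the filter on low counts that left 17182 genes to test. The study compared 4 groups of 2 libraries each: CAA mice under chronic restraint stress (CAA stress), CAA mice under mock treatment (CAA mock), WT mice under chronic restraint stress (WT stress) and WT mice under mock treatment (WT mock). RNA came from brains of mice perfused with PBS. The sources used here do not give the allele or injury behind CAA, the strain, age and sex of the mice, the part of the brain used, or the time between the last restraint session and collection. No source says whether the libraries of a group came from separate animals, so p-values measure the spread between these libraries. By the sex read from their counts, below, the 2 libraries of CAA stress, and likewise those of WT mock, were not from 1 animal; for CAA mock and WT stress the spread may be technical.

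The Egr genes encode zinc-finger transcription factors that bind GC-rich sites, and the corepressors Nab1 and Nab2 act on most of them. The Nr4a genes encode orphan nuclear receptors (Nur77, Nurr1 and NOR1) whose activity is set mainly by how much of them is made. In neurons, calcium entry and growth factor signals reach these genes through kinases that act on CREB, MEF2 and on SRF with its partners, so their transcripts appear within minutes and decay fast. Arc takes part in removing AMPA receptors from synapses, Npas4 is a neuronal transcription factor tied closely to calcium entry, and Ier5 acts with the heat shock factor Hsf1. Apart from this induction, Nr4a2 is steadily made in midbrain dopamine neurons, which depend on it, and in claustrum and deep cortical neurons.

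The sequence just upstream of the start site is shown for 4 genes: Nr4a2 and Nr4a3, whose CAA stress and CAA mock libraries did not overlap, Nr4a1, whose libraries did, and Egr2, the Egr gene of lowest level. Sequences are from RefSeq on GRCm38.p6, the assembly that mm10 names, 5′ to 3′ on the strand of the gene, ending at the base before the start site or before the first annotated exon base. Capitals mark matches to the motifs searched: the TGACG core of the CREB element and GCGNGGGCG of the EGR element, on either strand, and the CArG box of SRF.
Nr4a1: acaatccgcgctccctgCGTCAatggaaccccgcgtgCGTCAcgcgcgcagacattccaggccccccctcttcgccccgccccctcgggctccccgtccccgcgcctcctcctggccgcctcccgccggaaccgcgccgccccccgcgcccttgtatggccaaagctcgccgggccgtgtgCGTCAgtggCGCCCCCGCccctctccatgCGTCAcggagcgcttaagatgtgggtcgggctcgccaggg
Nr4a2: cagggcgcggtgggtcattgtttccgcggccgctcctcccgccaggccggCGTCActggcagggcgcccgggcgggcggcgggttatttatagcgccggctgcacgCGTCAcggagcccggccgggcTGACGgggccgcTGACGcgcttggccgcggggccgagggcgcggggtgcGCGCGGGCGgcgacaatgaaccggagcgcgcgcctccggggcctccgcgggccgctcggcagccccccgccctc
Nr4a3: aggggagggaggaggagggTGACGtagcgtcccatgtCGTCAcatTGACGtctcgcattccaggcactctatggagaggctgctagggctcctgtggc
Egr2: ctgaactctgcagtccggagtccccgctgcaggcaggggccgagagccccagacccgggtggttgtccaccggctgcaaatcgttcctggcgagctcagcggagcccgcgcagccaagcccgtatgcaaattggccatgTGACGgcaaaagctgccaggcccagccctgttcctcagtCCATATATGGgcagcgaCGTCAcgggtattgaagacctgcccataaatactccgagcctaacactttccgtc
They lie at chr15:101266596-101266845 on the plus strand (Nr4a1), chr2:57124004-57124253 on the minus strand (Nr4a2), chr4:48045055-48045152 on the plus strand (Nr4a3) and chr10:67537619-67537868 on the plus strand (Egr2). The 250 bases upstream held 4 TGACG cores in each of Nr4a1, Nr4a2 and Nr4a3, of which 3 fall in the 98 bases printed for Nr4a3. RefSeq held 5 start sites of Egr2. The windows printed for Egr2 and for Nr4a1 lie within the spans given below for these genes. The printed Egr2 window had 2 cores and 1 CArG box, while the window before the first base of the Egr2 span had no match. For the receptors, Nr4a1 and Nr4a2 had 1 EGR element each. Windows were held for 7 of the 10 genes, Egr4 and Npas4 had 2 cores each, and the Ier5 window held none of the motifs. Over 32817 RefSeq windows of 250 bases, TGACG occurred in 17.7%, the EGR element in 4.7% and the CArG box in 1.47%. The full TGACGTCA element, which contains TGACG, occurred in 1.55% of windows, and AAAGGTCA, the element bound by Nr4a monomers, in 1.34%; neither was in a window of these genes. A match is a description of letters, not a binding site shown here.

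The 8 libraries held 17275201 to 18894657 counted reads, with 6.10% to 9.99% on mitochondrial genes. Counts of Xist and of Y-linked genes put 2 libraries as female (CAA stress 1 and WT mock 1) and 6 as male, so sex was not balanced over the groups. All 14 excitatory forebrain markers were detected in every library. CAA mock 2 and WT mock 1 stood apart: their 13 striatal markers summed to 241 and 280 CPM (counts scaled to a common library size, TMM-adjusted), against 932 to 1778 CPM in the other 6 libraries. Markers of brain regions therefore differed between libraries of the same group. The 2 libraries were not alike in other lists. Thalamus markers summed to 435 CPM in CAA mock 2 and 238 CPM in WT mock 1, and oligodendrocyte markers to 16046 and 9966 CPM. In these 2 lists CAA stress 1 was near CAA mock 2, at 429 and 14654 CPM. Counts and medians over the 10 genes are given with and without CAA mock 2 and WT mock 1. Leaving out that pair removes the low striatal libraries, not every regional difference.

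Per length, Egr3 and Egr1 had the highest levels, at 27.1 ± 8.20 and 26.6 ± 7.05 FPKM, the deposited values scaled to gene length and depth (SD over 8 libraries). Ier5 followed at 15.7 FPKM, Arc at 12.3, Egr4 at 12.1, Nr4a1 at 10.4, Nr4a2 at 8.27 and Nr4a3 at 4.58 FPKM. Npas4 at 1.03 and Egr2 at 0.916 FPKM were lowest and rested on 23 to 151 and 13 to 91 reads per library, so their values are the least precise. Among neighbours in this order only Nr4a3 and Npas4 had ranges that did not overlap. Nr4a2 was nevertheless above Nr4a3 in 8 of 8 libraries, and Egr1 above Ier5 in 7 of 8, while Egr3 was above Egr1 in 4 of 8.

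Between libraries the highest level exceeded the lowest 2.27-fold for Ier5 and 6.80-fold for Egr2, with the other 8 genes between those ratios. CAA mock 2 had the lowest CPM of the 8 libraries for 8 of the 10 genes; it was lowest for 16.9% of all genes tested. Nr4a2 went the other way and had its highest value in that library, as did 16.2% of all genes. CAA mock 2 also had low striatal markers, and its excitatory markers summed to 4818 CPM against 5779 to 7343 CPM in the other libraries. The mean of the excitatory markers, as log2 CPM centred over the libraries, was -0.23 in CAA mock 2 and in CAA stress 1. WT mock 1, whose striatal markers were similarly low, had the highest CPM of the 8 libraries for Egr1, Nr4a1 and Nr4a3. The part of these markers in the low values of CAA mock 2 was not tested.

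**Figure D1:**
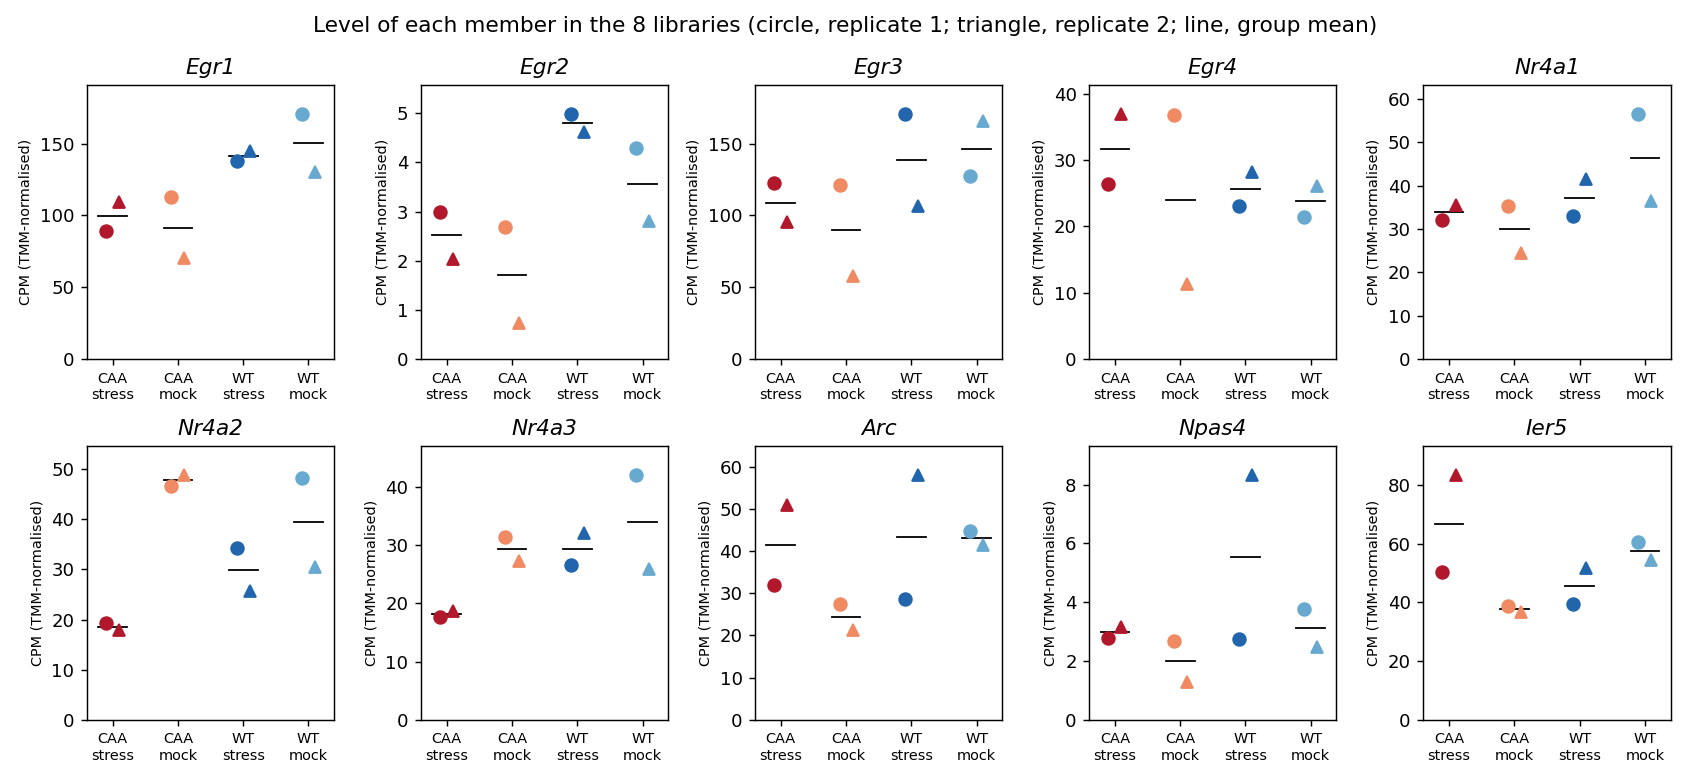
CPM of each of the 10 genes (vertical axes, linear, from 0) in the 2 libraries of each group, with CAA stress, CAA mock, WT stress and WT mock from left to right; points are libraries and bars their group mean. The 4 CAA libraries of Egr1 sit between 70.2 and 113 CPM, all below the 4 WT libraries, and Nr4a2 is lowest in the CAA stress pair.

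The first comparison set the 4 CAA libraries against the 4 WT libraries, averaged over stress and mock. Of the 10 genes, 9 had a lower fitted level in CAA (49.8% of all genes tested did), and the median of the 10 log2 fold changes was -0.45, against 0.0011 over all genes. Without CAA mock 2 and WT mock 1, 8 of the 10 were lower and the median was -0.27; among male libraries 8 were lower and the median was -0.24. Single values that the pair moved by more than 1.5 times, besides those of Egr1 and Egr2 given with them, were then -0.09 for Nr4a1, -0.04 for Nr4a2, -0.21 for Nr4a3, -0.39 for Npas4, 0.40 for Egr4 and 0.03 for Ier5. None of the 10 passed edgeR's quasi-likelihood test at an adjusted p of 0.05, a test passed by 2 of 17182 genes (0.0116%). At an unadjusted p under 0.05, 4 were lower (Egr1, Egr2, Nr4a1 and Nr4a3) against 4.12% of all genes, and DESeq2 called none of the 10 while calling 0.364% of its genes. In a bulk sample, fewer cells of a type and less RNA per cell cannot be told apart.

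Markers of cell types and regions also differed between CAA and WT. Of the excitatory forebrain markers 12 of 14 were lower in CAA, with a median log2 fold change of -0.12 and sums of 4818 to 6883 CPM in CAA and 5779 to 7343 CPM in WT. All 10 oligodendrocyte markers were higher (median 0.43), with sums of 6293 to 16046 CPM in CAA and 6283 to 9966 CPM in WT. All 12 thalamus markers were higher as well (median 0.57), with sums of 137 to 435 CPM in CAA and 129 to 270 CPM in WT. No marker of these 3 lists was at 0 in any library. Among other lists, all 7 midbrain dopamine markers tested were higher in CAA (median 1.19), 4 of them at an unadjusted p under 0.05 by edgeR. All 13 hypothalamus markers tested were higher (median 0.75). Of the olfactory bulb markers 7 of 10 were lower (median -1.50), and of the striatal markers 12 of 13 (median -0.37). EdgeR called no marker of these lists. The part of the lists in the CAA values of the 10 genes was not tested.

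Egr1 (ENSMUSG00000038418, chr18:34859823-34864984, plus strand, mm10) is the most studied Egr factor and a common readout of neuronal activity. It measured 89.2 and 109.6 CPM in CAA stress, 113 and 70.2 in CAA mock, 138 and 145 in WT stress, and 170 and 130 CPM in WT mock. Each CAA library lay below each WT library, the only one of the 10 genes with no overlap between the 2 sets of 4; 2.76% of all genes tested were separated in that direction. The means were 95.4 ± 19.8 CPM in CAA and 146 ± 17.5 CPM in WT (SD, n = 4 each). The log2 fold change was -0.61 ± 0.16 (SE), 95% interval -0.96 to -0.26, with an edgeR unadjusted p of 0.00282, rank 82 of the 17182 genes, and an adjusted p of 0.508; DESeq2 gave an adjusted p of 0.0529. Without CAA mock 2 and WT mock 1, the libraries of low striatal markers, the log2 fold change was -0.36. Stress and mock libraries overlapped for Egr1: the log2 fold change of stress over mock, averaged over CAA and WT, was 0.02 ± 0.16 (95% interval -0.33 to 0.37).

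Egr2 (ENSMUSG00000037868, chr10:67535475-67542188, plus strand), known for its role in Schwann cell myelination and also induced in neurons, was measured at 2.999 and 2.04 CPM in CAA stress, 2.69 and 0.732 in CAA mock, 4.98 and 4.63 in WT stress, and 4.30 and 2.81 CPM in WT mock. CAA libraries were below WT libraries within stress and within mock, although CAA stress 1 lay above WT mock 2. The log2 fold change of CAA over WT was -0.99 ± 0.36 (SE; edgeR unadjusted p 0.0190, adjusted p 0.577), with only 13 reads in CAA mock 2. Between stress and mock the log2 fold change was 0.50 ± 0.36, or 0.17 without CAA mock 2 and 1.10 without CAA mock 1. Without both CAA mock 2 and WT mock 1, CAA over WT was at -0.50.

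Egr3 (ENSMUSG00000033730, chr14:70077203-70082614, plus strand), needed for muscle spindles and also induced in neurons, had 123 and 95.3 CPM in CAA stress, 121 and 57.7 in CAA mock, 170 and 107 in WT stress, and 127 and 166 CPM in WT mock. The CAA mock pair was below the WT mock pair, while under stress the pairs overlapped. Its log2 fold change of CAA over WT was -0.53 ± 0.26 (edgeR adjusted p 0.628), or -0.31 without CAA mock 2 and -0.84 without CAA mock 1. The value of stress over mock, 0.10 ± 0.26, was -0.12 without CAA mock 2.

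Egr4 (ENSMUSG00000071341, chr6:85511121-85513589, minus strand) is the Egr factor on which Nab corepressors are not thought to act. It had 26.4 and 36.9 CPM in CAA stress, 36.8 and 11.3 in CAA mock, 23.0 and 28.3 in WT stress, and 21.5 and 26.2 CPM in WT mock. The 4 WT libraries fell within the range of the CAA libraries. Egr4 was the one gene of the 10 with a fitted level above WT in CAA, its log2 fold change being 0.16 ± 0.35 (adjusted p 0.920 by edgeR), and for stress over mock it was 0.25 ± 0.35.

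Nr4a1 (ENSMUSG00000023034, chr15:101254269-101274795, plus strand) encodes Nur77, first found among genes induced by growth factors. It had 32.1 and 35.6 CPM in CAA stress, 35.4 and 24.4 in CAA mock, 32.9 and 41.5 in WT stress, and 56.4 and 36.4 CPM in WT mock. WT mock 1 was the highest library, and CAA mock lay below WT mock while CAA stress and WT stress overlapped. The log2 fold change of CAA over WT was -0.39 ± 0.17 (edgeR unadjusted p 0.0465, adjusted p 0.591), and -0.21 without WT mock 1. Stress over mock was at -0.07 ± 0.17.

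Nr4a3 (ENSMUSG00000028341, chr4:48045153-48086447, plus strand) encodes NOR1. It had 17.7 and 18.8 CPM in CAA stress, 31.4 and 27.3 in CAA mock, 26.6 and 32.1 in WT stress, and 42.0 and 25.9 CPM in WT mock. Both CAA stress libraries were below the other 6. The log2 fold change was -0.45 ± 0.16 for CAA over WT (edgeR unadjusted p 0.0169, adjusted p 0.559) and -0.45 ± 0.16 for stress over mock (unadjusted p 0.0166, adjusted p 0.920). The CAA stress group enters both of these averages, and without WT mock 1 they were -0.25 and -0.26.

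Arc (ENSMUSG00000022602, chr15:74669083-74672570, minus strand) had 32.0 and 50.9 CPM in CAA stress, 27.6 and 21.2 in CAA mock, 28.7 and 58.0 in WT stress, and 44.8 and 41.5 CPM in WT mock. The CAA mock pair was below both the WT mock pair and the CAA stress pair, and the 2 WT stress libraries differed more than any group means. Over both treatments the log2 fold change of CAA over WT was -0.44 ± 0.24 (edgeR adjusted p 0.642), and -0.15 without WT stress 2. For stress over mock it was 0.39 ± 0.24, and 0.088 without WT stress 2.

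Npas4 (ENSMUSG00000045903, chr19:4984355-4989971, minus strand) had 2.78 and 3.16 CPM in CAA stress, 2.69 and 1.30 in CAA mock, 2.74 and 8.32 in WT stress, and 3.77 and 2.47 CPM in WT mock. WT stress 2, with 151 reads, was the highest, and the other 7 libraries lay at or under 3.77 CPM. CAA stress lay narrowly above CAA mock, and the other pairs of groups compared overlapped. The log2 fold change of CAA over WT was -0.77 ± 0.37 (edgeR adjusted p 0.607) with all libraries and -0.27 without WT stress 2. For stress over mock it was 0.70 ± 0.37, and 0.19 without WT stress 2.

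The second comparison, stress over mock averaged over CAA and WT, called no gene by edgeR (0% of 17182 genes), and so none of the 10; 657 genes had an unadjusted p under 0.05. Of the 10, 2 did, Nr4a2 and Nr4a3, both lower, against 1.79% of all genes in that direction. Only 3 of the 10 had a fitted level lower in stress (49.4% of all genes), and the median of the 10 log2 fold changes was 0.17. Without CAA mock 2 alone, 6 of the 10 were lower and the median was -0.09, and without both CAA mock 2 and WT mock 1, 6 were lower and the median was -0.02. DESeq2 called 1 of the 10, Nr4a2, and 3 genes in all (0.0102%).

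Nr4a2 (ENSMUSG00000026826, chr2:57106830-57124003, minus strand), which encodes Nurr1, had 19.3 and 17.8 CPM in CAA stress, 46.7 and 48.8 in CAA mock, 34.3 and 25.6 in WT stress, and 48.3 and 30.5 CPM in WT mock. The 2 CAA stress libraries were the lowest of the 8 and the 2 CAA mock libraries lay among the 3 highest. WT stress and WT mock overlapped. Stress libraries averaged 24.3 ± 7.48 CPM and mock libraries 43.6 ± 8.77 CPM (SD, n = 4 each), a log2 fold change of -0.88 ± 0.16 (edgeR unadjusted p 0.000177, rank 2 of all genes, adjusted p 0.920), which DESeq2 called at an adjusted p of 0.00970. Averaged over treatments, CAA over WT was -0.21 ± 0.16 for Nr4a2 (edgeR adjusted p 0.730).

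Within CAA mice alone, stress over mock gave the smallest p of all 17182 genes to Nr4a2. It averaged 18.6 ± 1.03 CPM in CAA stress and 47.8 ± 1.49 CPM in CAA mock (SD, n = 2 each), a fold of 0.389. The log2 fold change was -1.36 ± 0.23 (SE), 95% interval -1.87 to -0.86, with an edgeR unadjusted p of 8.89e-05 and an adjusted p of 0.696. DESeq2 called it at an adjusted p of 9.74e-04, with 14 genes called (0.0802%). Leaving out any 1 library kept the log2 fold change between -1.41 and -1.31, and among male libraries it was -1.41.

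Midbrain dopamine neurons hold much Nr4a2, so markers of these cells, listed after the values were seen, are given beside it. Most of their summed level came from Aldh1a1, which other cells also make. The sum of the 8 markers was 259 and 70.1 CPM in CAA stress, 125 and 375 in CAA mock, 105 and 97.8 in WT stress, and 175 and 107 CPM in WT mock. In the same order of libraries, Nr4a2 was at 19.3 and 17.8 CPM in CAA stress and 46.7 and 48.8 CPM in CAA mock. The dopamine transporter Slc6a3 had 238 and 27 reads in CAA stress and 147 and 359 in CAA mock, while Pitx3 and Foxa1 were at 0 in CAA stress 2. In WT mock 1, Aldh1a1 gave 159 of the 175 CPM, Slc6a3 had 1 read and Th 25 reads, and the mean centred log2 level of the list was its lowest, at -1.52. The 7 markers of claustrum and deep cortical cells, which also hold Nr4a2, summed to 248 and 263 CPM in CAA stress and 289 and 207 CPM in CAA mock, so those groups overlapped. Of the 7 dopamine markers tested, 6 had a fitted level lower in CAA stress than in CAA mock, with a median log2 fold change of -0.59. Of the 7 claustrum and deep cortical markers, 5 were higher and 2 lower (median 0.08). EdgeR called none in either list. The part of either cell type in the Nr4a2 difference was not tested.

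In CAA mice, edgeR called none of the 10 genes between stress and mock (0% of all genes were called; 1193 had an unadjusted p under 0.05). At that unadjusted level 2 were lower, Nr4a2 and Nr4a3 (3.27% of all genes), and 1 higher, Ier5 (3.68%). The 2 groups did not overlap in 5 genes: lower in Nr4a2 and Nr4a3 (19.0% of all genes) and higher in Arc, Npas4 and Ier5 (18.3%). Nr4a3 averaged 18.2 ± 0.768 CPM in CAA stress and 29.4 ± 2.90 CPM in CAA mock (SD, n = 2 each), a log2 fold change of -0.69 ± 0.23 (edgeR unadjusted p 0.0114, adjusted p 0.696). The remaining gene of the family, Nr4a1, overlapped between these groups. All 13 striatal markers had a higher fitted level in CAA stress than in CAA mock, with a median log2 fold change of 0.66. Their sums were 1621 and 932 CPM in CAA stress and 1301 and 241 CPM in CAA mock, so these groups overlapped. The part of the striatal markers in these differences was not tested. Over all 10 genes, 2 had a fitted level lower in CAA stress (48.6% of all genes) and the median log2 fold change was 0.34. Without CAA mock 2, 7 of the 10 were lower and the median was -0.13. Leaving out WT mock 1 as well gave the same count and median, with Nr4a2 at -1.33, Nr4a3 at -0.79 and Ier5 at 0.78.

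Ier5 (ENSMUSG00000056708, chr1:155096361-155099636, minus strand) had 50.4 and 83.4 CPM in CAA stress, 38.9 and 36.8 in CAA mock, 39.4 and 51.6 in WT stress, and 60.5 and 54.6 CPM in WT mock. Stress libraries were above mock libraries in CAA mice and below them in WT mice. In CAA mice the log2 fold change of stress over mock was 0.82 ± 0.23 (edgeR unadjusted p 0.00426, adjusted p 0.696), and 0.41 without CAA stress 2, the highest library. Averaged over treatments or genotypes the opposite directions met: CAA over WT was -0.02 ± 0.16, and stress over mock 0.24 ± 0.16.

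In WT mice, stress over mock called none of the 10 genes by edgeR (0% of all genes), none by DESeq2 (0%), and none of the 10 at an unadjusted p under 0.05 (1.59% of all genes). The groups did not overlap for Ier5, which was lower (13.5% of all genes), and for Egr2, which was higher (13.2%). The smallest p values of the 10 belonged to Nr4a2, at a log2 fold change of -0.39 ± 0.22 (edgeR unadjusted p 0.106), and Npas4, at 0.82 ± 0.52 (unadjusted p 0.140). The Nr4a2 value was -0.03 without WT mock 1, and the Npas4 value -0.19 without WT stress 2.

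Whether the change with stress differed between CAA and WT mice was tested as an interaction, the change with stress in CAA mice minus that in WT mice. EdgeR called no gene (0%; 595 had an unadjusted p under 0.05) and DESeq2 called 1 gene (0.00340%), which was not among the 10. At the unadjusted level 2 of the 10 differed: Ier5, with a log2 difference of 1.16 ± 0.32 (edgeR unadjusted p 0.00422, rank 21, adjusted p 0.995) against 1.98% of all genes in that direction, and Nr4a2, at -0.97 ± 0.32 (unadjusted p 0.0111, adjusted p 0.995) against 1.48%. The Ier5 value was 0.74 without CAA stress 2.

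Over all settings tried, the log2 fold change of Nr4a2 between CAA stress and CAA mock lay between -1.56 and -1.20. It passed an adjusted p of 0.05 with DESeq2 and when genes of low counts were kept in the edgeR fit, at an adjusted p of 1.48e-07 there, and in no other setting. In that fit, which tested 29446 genes and drew the spread of most genes fully to the trend over genes, Egr1 between CAA and WT (adjusted p 0.00132) and the Ier5 interaction (adjusted p 0.0264) also passed.

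**Figure D2:**
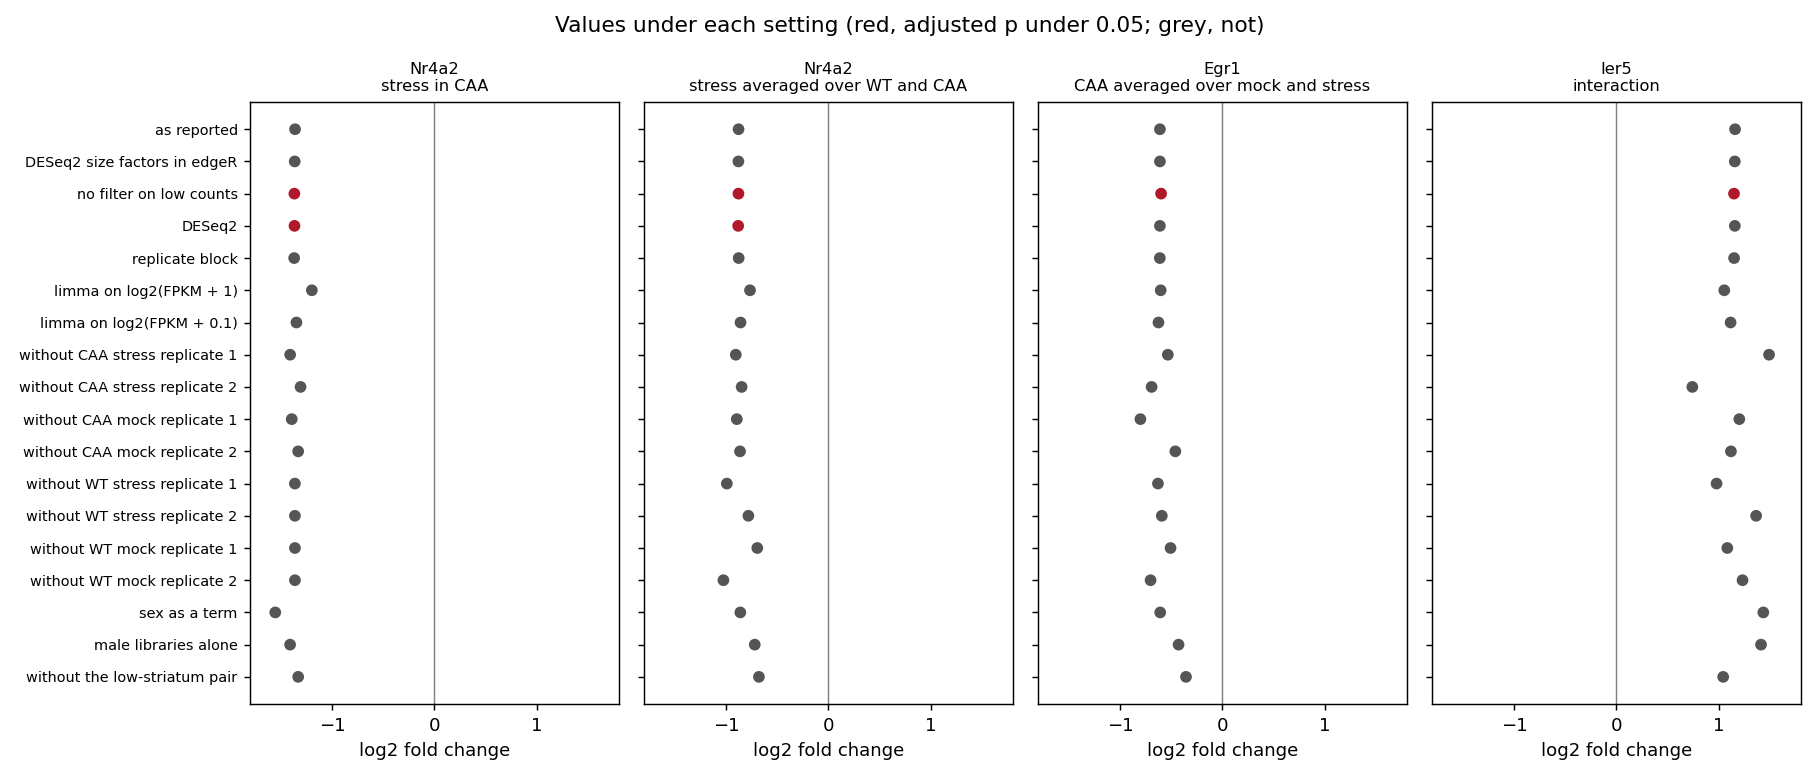
Log2 fold changes (horizontal axes) of Nr4a2 for stress over mock in CAA mice and averaged, of Egr1 for CAA over WT, and of Ier5 for the interaction, under the reported fit and each alternative setting (rows); red points had an adjusted p under 0.05 and grey points did not. Nr4a2 in CAA mice stays between -1.56 and -1.20, and the 3 other values keep their side of 0 in every setting.

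**Figure D3:**
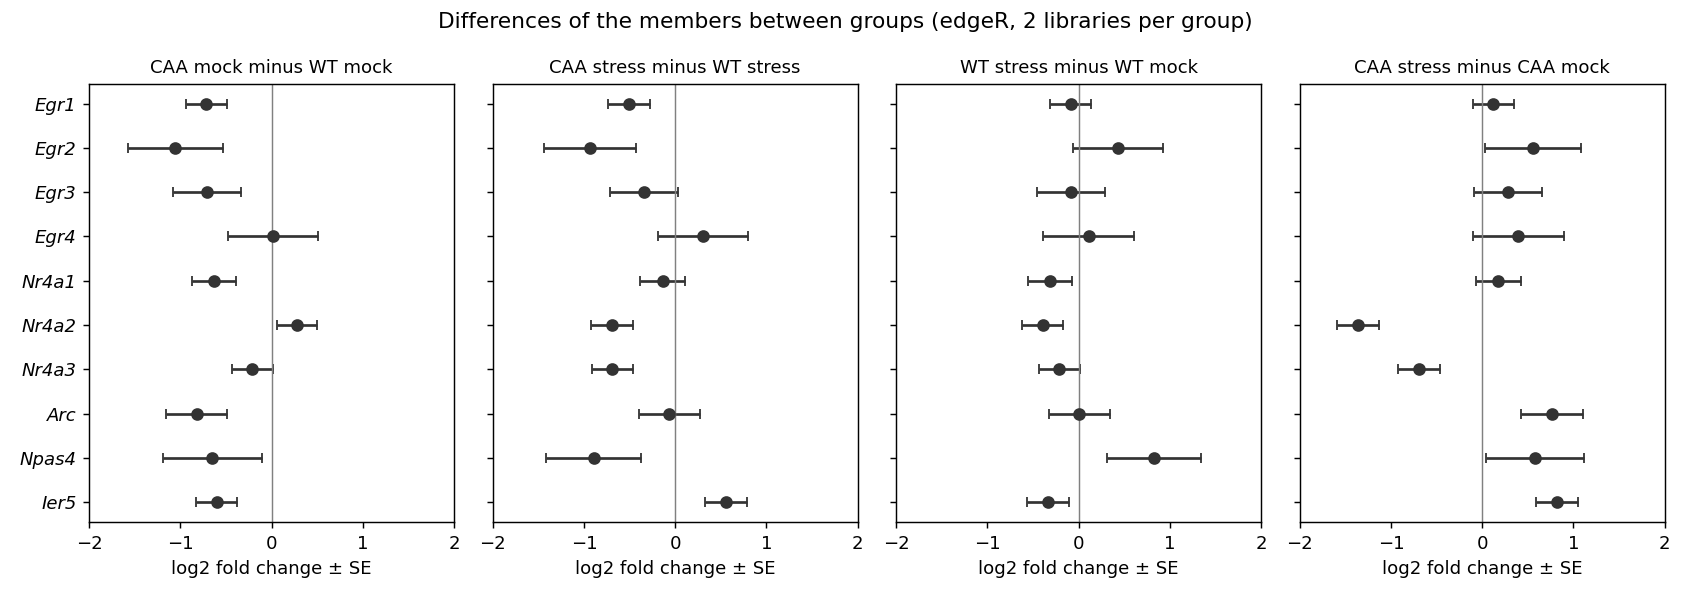
Log2 fold change with its standard error (horizontal axes) of each of the 10 genes in 4 comparisons of 2 against 2 libraries from the edgeR fit; points right of 0 are higher in the group named first. Nr4a2 stands at -1.36 and Ier5 at 0.82 between CAA stress and CAA mock, and Egr1 lies left of 0 in both comparisons of CAA with WT.

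CAA and WT were also compared within each treatment; these comparisons share their libraries with those above. Under mock treatment edgeR called none of the 10 (0.0116% of all genes), and DESeq2 none (0.130%). At an unadjusted p under 0.05, 4 were lower in CAA mock (2.46% of all genes): Arc at a log2 fold change of -0.82 ± 0.34, Egr1 at -0.72 ± 0.23, Nr4a1 at -0.63 ± 0.24 and Ier5 at -0.60 ± 0.23, each with an edgeR adjusted p of 0.998. Egr1 was at -0.41 without CAA mock 2, and Nr4a1 at -0.28 without WT mock 1. The CAA mock pair lay below the WT mock pair without overlap in 6 genes, Egr1, Egr2, Egr3, Nr4a1, Arc and Ier5 (16.7% of all genes). Over all 10 genes, 8 were lower in CAA mock (49.3% of all genes) with a median log2 fold change of -0.64. CAA mock 2 and WT mock 1 are the libraries of low striatal markers; without them, with 1 library left in each group, 6 of the 10 were lower, the median was -0.05, Egr1 was at -0.21 and Nr4a1 at -0.04. Of the 14 excitatory forebrain markers 13 were lower in CAA mock too, with a median log2 fold change of -0.29 and sums of 6187 and 4818 CPM in CAA mock against 7343 and 6532 CPM in WT mock; their part in the result was not tested.

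Under stress edgeR called none of the 10 (0.0116% of all genes), and DESeq2 none (0.0817%). At an unadjusted p under 0.05, 3 were lower in CAA stress (4.09% of all genes) and 1 higher (4.14%). Nr4a2 and Nr4a3 both stood at -0.69 ± 0.23 on the log2 scale (edgeR adjusted p 0.579), Egr1 had -0.51 ± 0.23 (adjusted p 0.599) and Ier5 0.56 ± 0.23 (adjusted p 0.579), or 0.14 without CAA stress 2. The pairs did not overlap, with CAA stress lower, in Egr1, Egr2, Nr4a2 and Nr4a3, 4 of the 10 genes (20.4% of all genes). Egr1 was the one gene at an unadjusted p under 0.05 and lower in CAA under both treatments.

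Fos, the best known gene of the same response, had 11.3 and 10.5 CPM in CAA stress, 10.9 and 7.89 in CAA mock, 13.2 and 19.7 in WT stress, and 12.4 and 10.4 CPM in WT mock, so that CAA and WT libraries overlapped. Its log2 fold change of CAA over WT was -0.44 ± 0.18 (edgeR adjusted p 0.586). The other 32 immediate early genes, a list that includes Fos, did not share one direction: 17 were higher and 15 lower in CAA, with a median log2 fold change of 0.03. EdgeR called none of them, and 6 higher and 5 lower had an unadjusted p under 0.05, as did 1439 of all 17182 genes in either direction. Jun, at 0.65 ± 0.13, and Gadd45g, a stress-responsive growth arrest gene, at 0.89 ± 0.21, had the smallest p of this list and were higher in CAA (edgeR adjusted p 0.366 and 0.508).

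Upstream of the 10 genes, 28 kinases, CREB coactivators, MEF2 and SRF factors were tested, and none was called: 8 were higher and 20 lower in CAA, with a median of -0.15, and 7 had an unadjusted p under 0.05, all lower. Of all genes, 49.8% were lower and 4.12% were lower at an unadjusted p under 0.05. Camk4, a calcium-dependent kinase that acts on CREB, was at -0.63 ± 0.17, and Rps6ka3, the RSK2 kinase of the ERK pathway, at -0.46 ± 0.14 (edgeR adjusted p 0.508 and 0.531). Downstream, 7 of 24 activity-induced effector genes were higher and 17 lower in CAA (median -0.18), with none called and 4 lower at an unadjusted p under 0.05, against the same shares of all genes. Pcsk1, a convertase that processes neuropeptides, was at -0.59 ± 0.12 and Rasgrp1, a Ras exchange factor, at -0.38 ± 0.12 (edgeR adjusted p 0.421 and 0.536). For stress over mock, 18 of the 24 effector genes were higher and 6 lower. Of the 28 upstream genes 19 were higher and 9 lower, with none called in either list. An edgeR unadjusted p under 0.05 was reached by 1 effector gene, which was lower (1.79% of all genes), and 0 upstream genes. CAA mock 2 was the lowest library of both lists by mean centred log2 level (log2 CPM minus the mean over libraries). The effector genes stood at -0.42 there, against -0.13 to 0.31 in the other libraries. The upstream genes stood at -0.27, against -0.07 to 0.12. Its part in the counts of both lists was not tested.

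The mean centred log2 profile of the 10 genes over the 8 libraries was lowest in CAA mock 2, at -0.70, and highest in WT mock 1, at 0.39. Egr1 and Nr4a1 lay nearest to it, with root-mean-square differences of 0.119 and 0.139 on the log2 scale over 8 libraries. Nr4a2 was the farthest of the 10, at 0.654, and Egr2 next at 0.543, against a median of 0.381 over the 13422 other genes ranked. Each of the 10 enters the mean it is set against, which draws it closer, so its distance cannot be compared on equal terms with that median. Among genes outside the 10, the 8 closest were Rexo5 (0.131), Prmt8 (0.136), Hvcn1 (0.137), Camk1g (0.141), Nutf2-ps1 (0.142), Dkkl1 (0.150), Adcy4 (0.152) and Dnajb5 (0.153). Rexo5, Hvcn1, Nutf2-ps1 and Adcy4 had a mean below 2 CPM.

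**Figure D4:**
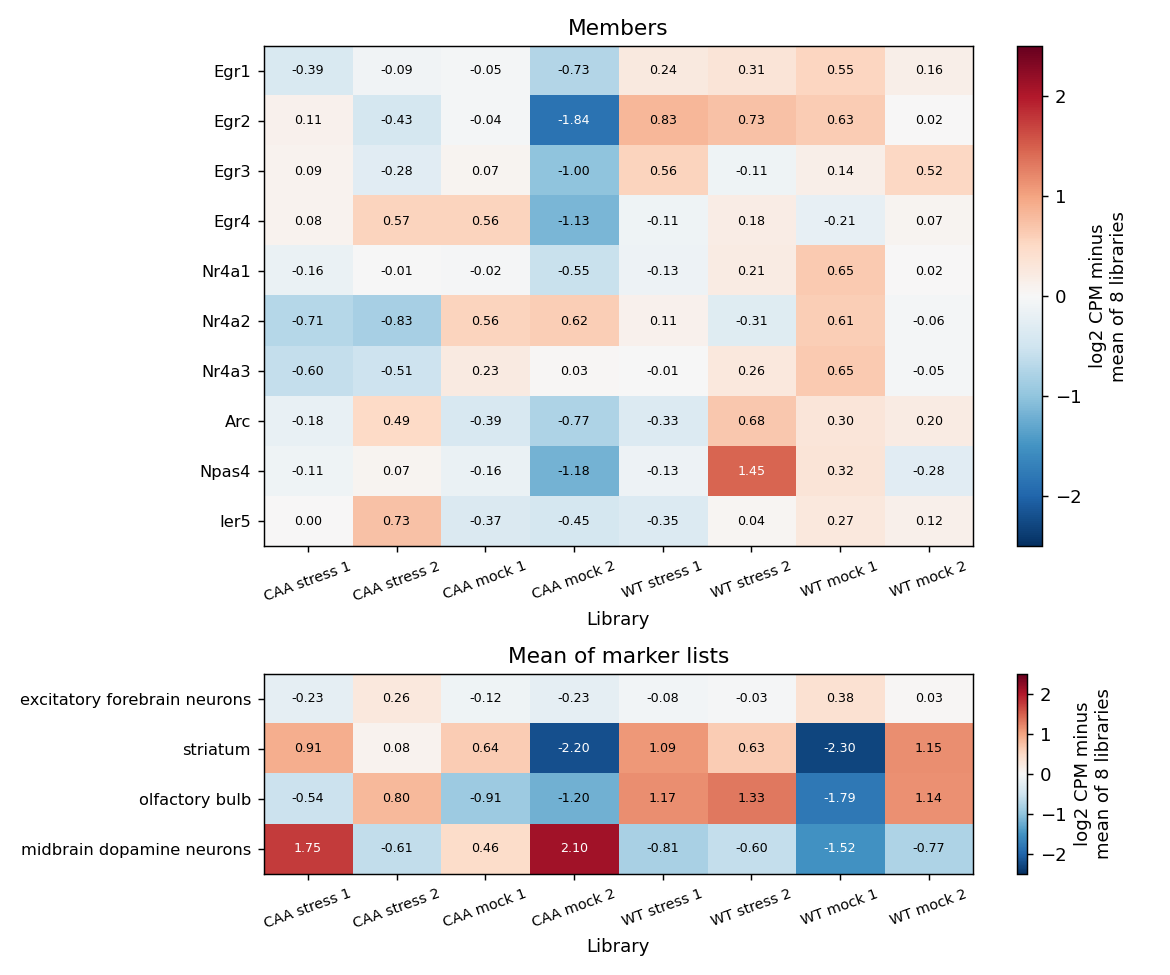
Log2 CPM of the 10 genes (rows) in the 8 libraries (columns), each row centred on its mean over the libraries; colour and printed values give the difference from that mean. CAA mock 2 is the lowest library for 8 of the 10 rows, and the Nr4a2 row is highest there. The lower panel gives the mean of the same quantity over 4 lists of markers, where CAA mock 2 and WT mock 1 are low in the striatum list at -2.20 and -2.30.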

How the data were processed

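Raw read counts per gene and FPKM per gene were deposited by the authors for 54532 mouse genes in 8 brain libraries. Reads were aligned to mm10 with HISAT2 2.0.5 and counted with featureCounts 1.5.0-p3, per the submitters' processing notes. The sources used here do not state the counting parameters, the strandedness or the release of the annotation. Per the labels' protocols, RNA was column-purified and libraries were made with an Illumina kit.

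The 10 genes and the other lists were chosen with earlier results of these data known. The rule for named genes was: the 10 genes, of each other list at most the 2 of smallest p, and the 8 genes nearest the mean profile. Xist, Fos, Nab1 (as the paralog of Nab2) and single dopamine markers were named in addition. The dopamine and claustrum lists were added after values were seen. Counts were filtered (filterByExpr, minimum count 10, total 15), TMM-scaled and fitted on all 8 libraries with edgeR 4.0.16 (robust quasi-likelihood, 4 group means, 4 residual degrees of freedom, R 4.3.3). P-values were Benjamini-Hochberg adjusted over 17182 genes, threshold 0.05. DESeq2 1.42.0 and limma 3.58.1 on log2(FPKM + 1) and log2(FPKM + 0.1), no low-count filter, sex terms and left-out libraries were alternatives. The fit was tested on simulated data. With 2 libraries per group, an exact permutation test cannot go below p = 0.333.

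Within each group, the difference in level between its replicates, in the order of their numbers, was taken for each of 17182 genes. Between groups these differences correlated at -0.271 to 0.155, so the numbers were not taken as pairs. Genes were matched between the tables by gene identifier. No table gene overlapped any of the 10. Upstream windows were scanned with 250 bases before each RefSeq start, and their motif matches are letters only.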

Additional observations from a re-analysis of the deposited data

How the results depend on the processing

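For the 35 fold changes reported, 577 of 608 alternative values kept sign and side of the threshold, 22 changed sign and 9 newly passed; none passed in the reported fit, so none could be lost. Without the filter on low counts, the number of the 10 genes called was 1 for CAA over WT, 1 for stress over mock, 2 for CAA under mock (Egr1 and Arc), 3 for stress in CAA mice (Nr4a2, Arc and Ier5) and 1 for the interaction, among 223, 49, 82, 112 and 17 genes in all. DESeq2 called 1 of the 10 for stress over mock and 1 for stress in CAA mice, Nr4a2 in both. The cause of these differences was not tested.

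Small values changed sign. With male libraries alone, Ier5 for CAA over WT was 0.18, and for stress over mock Egr3 was -0.083 and Nr4a1 0.14. Without CAA mock 2 and WT mock 1, Ier5 for CAA over WT was 0.034, and for stress over mock Egr1 was -0.032, Egr3 -0.21 and Egr4 -0.12. When each library was left out in turn, Ier5 for CAA over WT ranged from -0.23 to 0.14 and Egr4 from -0.38 to 0.47. For stress over mock, Egr1 ranged from -0.14 to 0.21, Egr3 from -0.12 to 0.42, Egr4 from -0.056 to 0.79 and Nr4a1 from -0.21 to 0.10. Npas4 for stress in WT mice ranged from -0.19 to 1.41. A lone library was taken to vary like the others. The number of the 10 genes that were lower, a count examined under these settings after values were seen, ranged from 8 to 10 for CAA over WT, 2 to 6 for stress over mock, 8 to 9 for CAA under mock and 2 to 7 for stress in CAA mice as each library was left out. Without CAA mock 2 and WT mock 1 together it was 8, 6, 6 and 7 in the same order, and the median log2 fold change of the 10 was -0.27, -0.02, -0.05 and -0.13.

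With the replicate block, the Nr4a2 fold change for stress in CAA mice was -1.37 (log2), and the block changed no call among the 10; 2 genes were called for CAA over WT. No group has more than 2 libraries, and Egr2 and Npas4 rest on 13 to 91 and 23 to 151 reads per library.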

Other observations

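Among 16 partners and corepressors of the 10 genes, edgeR called none in any comparison. For CAA over WT, 6 were higher and 10 lower (median log2 fold change -0.07), and the glucocorticoid receptor gene Nr3c1 was at -0.30 ± 0.12 (edgeR unadjusted p 0.0223, adjusted p 0.578). For stress over mock in CAA mice, 10 were higher and 6 lower. CAA mock 2 was the lowest library of this list, at a mean centred log2 level of -0.32 against -0.09 to 0.10 in the others. For stress in CAA mice, Nab2, a corepressor of Egr factors, was at 0.79 ± 0.32 (edgeR unadjusted p 0.0310, adjusted p 0.696). Its paralog Nab1 was at -0.20 ± 0.17 (edgeR adjusted p 0.777).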
